A study of Mus musculus with 12 samples.

Results

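The expression of 10 inflammasome genes was followed in tumour-associated macrophages (TAMs) of gliomas that had, or had not, taken up nanoparticles. They were chosen by symbol and comprise 6 sensors (Nlrp3, Nlrp1b, Nlrc4, Naip2, Naip5 and Aim2), the adaptor Pycard, the proteases Casp1 and Casp4, and the pore-forming Gsdmd. All 10 were found among the 54532 genes of the count table, and all 10 passed the filter on low counts that left 15014 genes. The series compares TAMs that carried perfluoro-crown-ether nanoparticles with those that did not, in 6 glioma-bearing mice labelled Ntv-a_Ink4a/Arf_KO. Every mouse received rhodamine-labelled nanoparticles intravenously, and 24 hours later tumour cells gated as CD45-positive, CD11b-positive and Ly6C-negative (the description lists Ly6C- 2 times) were sorted into 1 rhodamine-negative and 1 rhodamine-positive fraction of more than 2000 cells each. Both fractions therefore share the genotype, the tumour and the injection, and no mouse without nanoparticles was analysed here. By their labels 4 mice (1 to 4) were male and 2 (5 and 6) female, and no age is given. In Ntv-a mice an avian virus receptor is expressed from the nestin promoter, so that glial progenitors can be infected, and Ink4a/Arf is a tumour suppressor locus.

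Inflammasomes are cytosolic complexes that macrophages build when a sensor meets a danger signal. NLRP3 responds to potassium efflux and to damage of lysosomes, among others by engulfed particles, AIM2 binds double-stranded DNA, NLRP1B responds to bacterial protease activity, and NAIP proteins bind bacterial flagellin or secretion system proteins and then engage NLRC4. The adaptor ASC, encoded by Pycard, links sensors to caspase-1, which matures interleukin-1 beta and interleukin-18 and cleaves gasdermin D into a membrane pore. Caspase-4 (also called caspase-11 in mice) binds bacterial lipopolysaccharide directly and cleaves gasdermin D as well. Assembly and cleavage are events of the protein, which transcript counts do not record.

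The libraries held 13073189 to 17379314 counts. Scaling factors (trimmed mean of M values, TMM) did not overlap between the sorts, at 1.02 to 1.15 without rhodamine and 0.923 to 0.980 with it. The 50 most abundant genes held 20.9% to 25.4% of the counts in the former and 26.4% to 30.4% in the latter. The sorts also differed in markers of other cells. Markers said to fall or rise with rhodamine passed the edgeR test described below, at an adjusted p under 0.05. By that test 13.2% of all genes tested were lower and 13% higher. Of 11 dendritic cell markers 9 fell and none rose, and their summed level was 954 to 2112 CPM (TMM-scaled throughout) without rhodamine and 442 to 750.0 CPM with it. Of 9 monocyte markers 4 fell and 1 rose, with sums of 365 to 848 CPM and 75.2 to 194 CPM. Ly6c2, which encodes a Ly6C protein that the gate excluded, had 23 to 154 counts without and 0 to 87 with rhodamine. It was lower in all 6 mice but did not pass (edgeR adjusted p = 0.0649). Other lists differed as well. All 3 tested basophil and mast cell markers fell, with sums of 7.20 to 425 CPM without and 0.0624 to 22.6 CPM with rhodamine. Of 4 tested NK and T cell markers 2 fell (Klrd1, from 586 to 1268 counts down to 25 to 128, and Gzmb) and Cd4 rose, with sums of 44.8 to 106 CPM and 7.62 to 26.7 CPM, while Cd3e had at most 6 counts in any library. Of 5 tested B and plasma cell markers 2 fell (Ighm and Jchain, the latter with 80 to 675 counts against 0 to 7), with sums of 165 to 294 CPM and 116 to 269 CPM. Of 11 tested glioma and oligodendrocyte lineage markers 6 fell and none rose, with sums of 117 to 182 CPM and 51.6 to 162 CPM. Of 3 tested neutrophil markers Cxcr2 fell (19 to 309 counts against 3 to 40), Mmp8 rose and Csf3r did not pass, with sums of 214 to 390.2 CPM and 249 to 417 CPM, while Ly6g had 0 or 1 count in every library. Of 6 tested markers of border-associated macrophages 4 rose and none fell (90.6 to 204 CPM and 138 to 335 CPM), and of 10 microglia markers 3 rose and none fell (5638 to 17178 CPM and 11966 to 18827 CPM). Macrophage markers were abundant in all 12 libraries, with 31918 to 74086 counts of Csf1r, and 6 of 10 rose and 1 fell. In sorted bulk RNA, fewer cells of a type and less RNA per cell cannot be told apart.

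All 10 transcripts were present in every library, from 34 counts of Nlrc4 to 8178 of Pycard. Per kilobase of annotated exon, their levels in rhodamine-negative sorts spanned from 1.67 ± 0.409 CPM per kb for Nlrc4 to 96.0 ± 23.4 CPM per kb for Pycard (SD, n = 6). Gsdmd came second at 60.01 ± 11.2 CPM per kb. Nlrp3 (31.9 ± 6.80) and Casp1 (31.5 ± 5.84 CPM per kb) did not differ beyond their spread, and Nlrp3 was the higher in 3 of 6 libraries. Aim2 (16.4), Naip2 (14.9), Casp4 (12.6) and Naip5 (11.04 CPM per kb) formed a lower group, within which the ranges of neighbours overlapped. Casp1 was above Aim2 in all 6 libraries. Nlrp1b was lower, at 5.27 ± 1.05 CPM per kb, in all 6 libraries than Naip5. In rhodamine-positive sorts Pycard stood further above Gsdmd, at 132 ± 19.97 against 56.5 ± 13.2 CPM per kb. There Casp1 (28.3 CPM per kb) stood above Nlrp3 (21.1 CPM per kb) in 5 of 6 libraries. The place of Casp4 depends on the length used, since with its principal transcript in place of all merged exons it had 32.5 CPM per kb in rhodamine-negative sorts and ranked with Nlrp3 and Casp1.

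**Figure D1:**
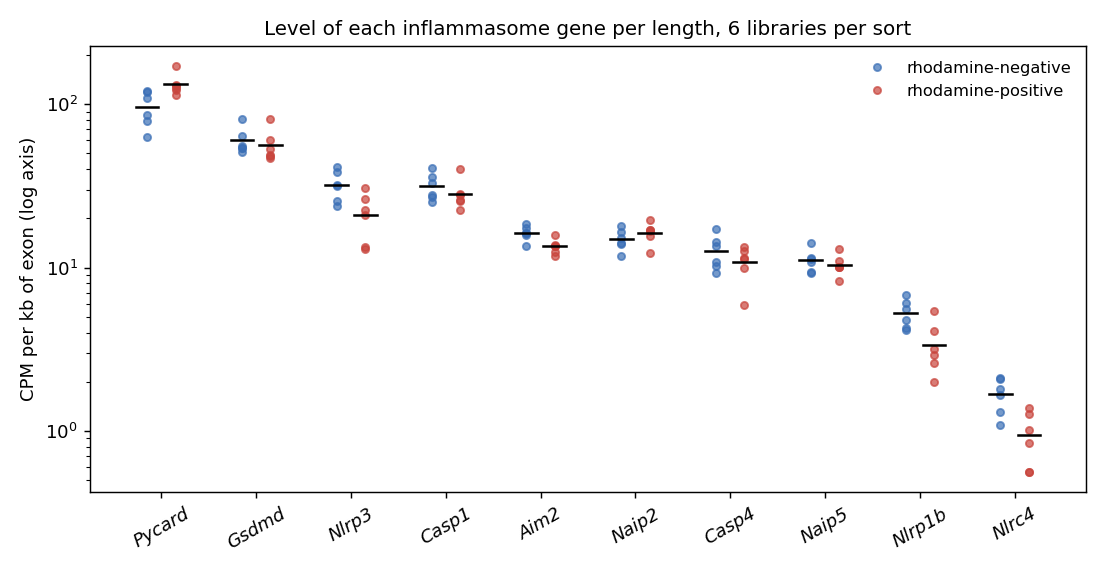
Level of each inflammasome gene in TMM-scaled CPM per kilobase of merged exon (log axis), with 6 rhodamine-negative libraries in blue, 6 rhodamine-positive libraries in red and a bar at each mean. Pycard is the highest and Nlrc4 the lowest in both sorts, and Nlrp3 and Casp1 share a level in rhodamine-negative sorts.

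Promoters of the members are shown because Nlrp1b, Aim2 and Pycard hold the same short match near their start. They are also shown because Casp4 and Nlrp3 hold a match to the site of NF-kB, the factor of the priming signal. In the test below Nlrp1b and Aim2 fell and Pycard rose, while Nlrp3 and Nlrc4 fell without the short match. A link between these matches and the changes was not tested. RefSeq windows (GRCm38.p6, most of each before and a short stretch after an annotated start) were matched for 9 of the 10 genes, in 12 windows. The letters GAGGAAGT, a core of the site of the myeloid factor PU.1, were searched on both strands. They occurred in the windows of Nlrp1b, Aim2 and Pycard, that is 3 of 12 windows, against 3.2% of all 32851 promoter windows of that length. Without their first letter, the same letters also occurred in windows of Nlrc4, Naip2 and Naip5, and the share over all windows was not counted. The NF-kB consensus, searched likewise, occurred in 1 of the Nlrp3 windows and in both overlapping windows of Casp4, against 1.62% of all windows. No window of a member held TTCNNNGAA (STAT site), TGANTCA (AP-1) or TGACGTCA (CRE), which 8.3%, 7.81% and 1.79% of all windows hold. The consensus of the interferon-stimulated response element, held by 3.44% of all windows, was absent as well. CACGTG was found in Casp1 (7.15% of all windows) and GGGCGG in Aim2 and Pycard (35.7%). A match is a run of letters and not a measured binding site. The 200 bases before the annotated start are given 5′ to 3′ on the strand of the gene, with PU.1 or NF-kB matches in capitals. On the strand shown, the match of Pycard is the reverse complement of the PU.1 letters. In Casp4 the capitals join a pair of overlapping NF-kB matches.
Nlrp1b (chr11:71230734-71230933, minus strand): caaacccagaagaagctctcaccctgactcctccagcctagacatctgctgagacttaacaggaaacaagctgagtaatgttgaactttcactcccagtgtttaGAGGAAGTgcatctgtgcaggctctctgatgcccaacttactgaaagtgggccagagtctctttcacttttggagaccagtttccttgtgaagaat
Aim2 (chr1:173420404-173420603, plus strand): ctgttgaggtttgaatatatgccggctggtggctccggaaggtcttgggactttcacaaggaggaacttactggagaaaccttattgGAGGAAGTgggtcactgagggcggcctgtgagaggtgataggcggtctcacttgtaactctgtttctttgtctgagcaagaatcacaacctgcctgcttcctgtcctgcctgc
Pycard (chr7:127993868-127994067, minus strand): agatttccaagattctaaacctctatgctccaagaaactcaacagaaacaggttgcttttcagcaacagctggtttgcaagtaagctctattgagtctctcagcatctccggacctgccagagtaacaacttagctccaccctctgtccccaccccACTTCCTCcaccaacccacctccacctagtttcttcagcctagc
Nlrp3 (chr11:59541369-59541568, plus strand): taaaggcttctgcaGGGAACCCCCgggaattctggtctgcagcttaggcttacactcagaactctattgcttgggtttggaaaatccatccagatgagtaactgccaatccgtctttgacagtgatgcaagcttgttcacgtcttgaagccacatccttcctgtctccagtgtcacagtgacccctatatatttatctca
Casp4 (chr9:5308649-5308848, plus strand): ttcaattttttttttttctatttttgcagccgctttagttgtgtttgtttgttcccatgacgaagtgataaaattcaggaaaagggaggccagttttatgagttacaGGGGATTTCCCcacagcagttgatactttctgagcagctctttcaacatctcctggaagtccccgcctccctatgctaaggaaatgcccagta

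Of the 6 inflammasome sensors 4 were lower, and the adaptor was higher, in TAMs that carried nanoparticles, while both NAIP genes, the caspases and gasdermin D did not pass the test. In edgeR's quasi-likelihood test with the mouse as a block and Benjamini-Hochberg adjustment over 15014 genes, 4 of 10 members fell (Nlrp3, Nlrp1b, Nlrc4 and Aim2), against 13.2% of all genes tested. Only Pycard among the 10 rose, against 13% of all genes. With 5 of 10 called in either direction, against 26.2% of all genes, the median log2 fold change was -0.19 over the members and -0.02 over all genes tested. In no member were the 6 libraries of one sort all above the 6 of the other, whereas 8.81% of all genes had sorts that did not overlap, 4.67% with the rhodamine-positive sorts lower. Nlrp3, Nlrp1b, Aim2 and Casp1 were lower in all 6 mice, as were 14% of all genes tested.

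**Figure D2:**
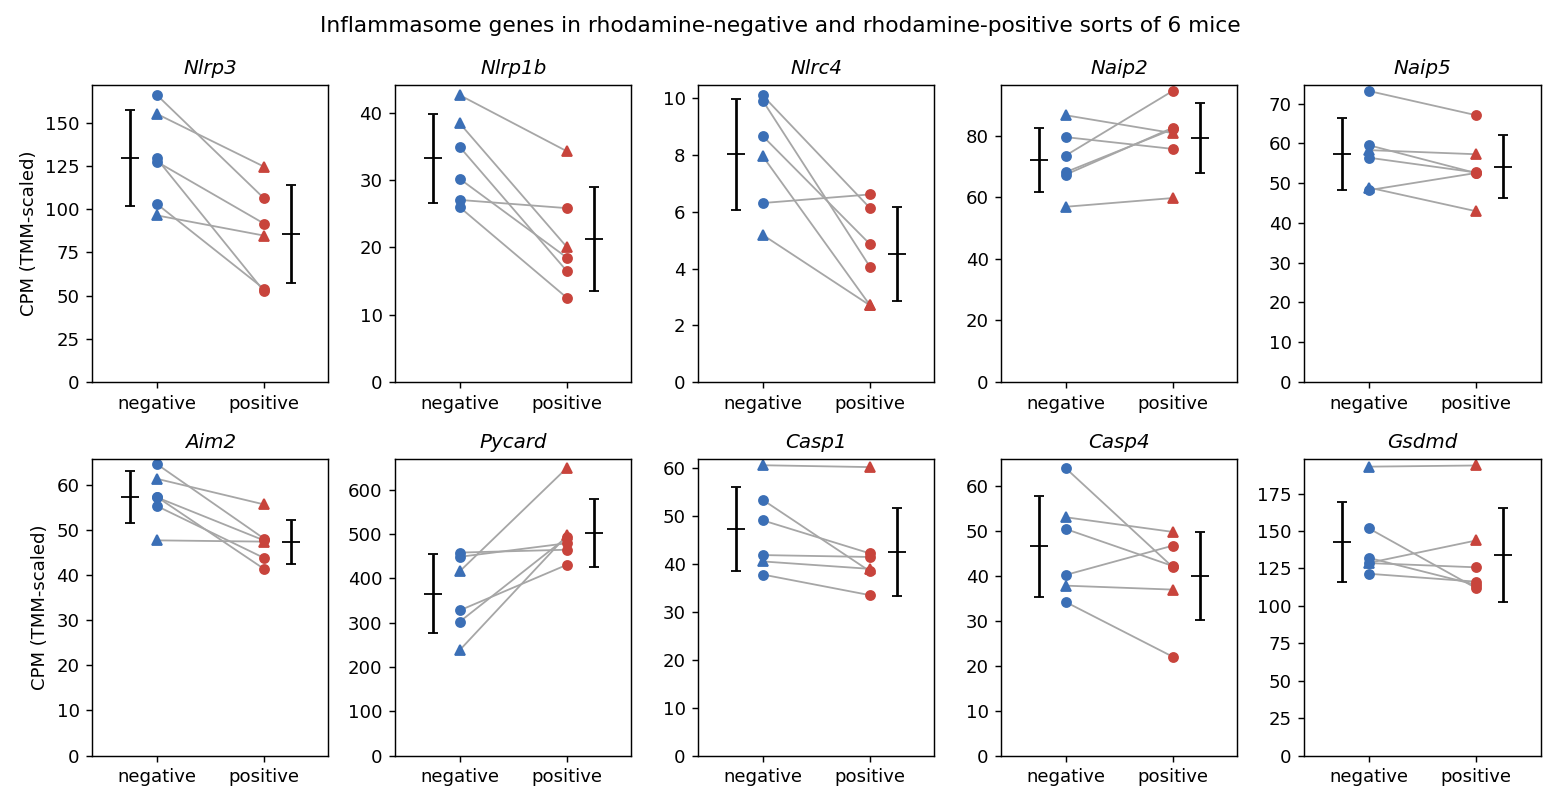
TMM-scaled CPM of the 10 genes in the rhodamine-negative (blue) and rhodamine-positive (red) sort of each mouse, joined by a line, with circles for male and triangles for female mice and the mean ± SD of 6 libraries in black. The lines of Nlrp3, Nlrp1b, Aim2 and Casp1 all descend, those of Pycard all ascend, and those of Nlrc4, Naip2, Naip5, Casp4 and Gsdmd go both ways.

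Nlrp3 (ENSMUSG00000032691, chromosome 11, 59541568 to 59566956 in GRCm38, plus strand) had 96.4 CPM at the lowest, 128 at the median and 166 at the highest in rhodamine-negative sorts. In rhodamine-positive sorts it had 52.4, 88.2 and 125 CPM. The ranges overlapped, but the level was lower in the rhodamine-positive sort of all 6 mice. The drop was deepest in mouse 1, from 129 to 52.4 CPM, and shallowest in mouse 6, from 96.4 to 84.7 CPM. Nlrp3 was thus 1.56-fold lower, with a log2 fold change of -0.64 ± 0.13 (SE, n = 6 pairs, edgeR adjusted p = 0.00487). Without the pairing by mouse the estimate was -0.60 and did not pass (edgeR adjusted p = 0.0586).

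Nlrp1b (ENSMUSG00000070390, chromosome 11, 71153102 to 71230733, minus strand) had 26.0, 32.6 and 42.6 CPM (lowest, median and highest) without rhodamine and 12.5, 19.2 and 34.3 CPM in rhodamine-positive sorts. It was lower in all 6 mice, with log2 differences of -1.05 in mouse 1, -1.08 in mouse 3 and -0.07 in mouse 4. The log2 fold change was -0.69 ± 0.15 (SE, edgeR adjusted p = 0.00532), and it passed in all 17 alternatives tried, the unadjusted sign-flip test among them. Little of its sequence is shared, since 1.45% of the 50-base windows of its transcripts also occur in another gene's transcripts, mostly Nlrp1a.

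Nlrc4 (ENSMUSG00000039193, chromosome 17, 74425438 to 74459142, minus strand) was the rarest member, with 87 to 165 counts without rhodamine and 34 to 99 with it. These correspond to 5.19, 8.32 and 10.1 CPM and to 2.70, 4.46 and 6.61 CPM (lowest, median and highest). It had the largest estimated fall of the 10, -0.87 ± 0.22 on the log2 scale or 1.83-fold (SE, n = 6 pairs, edgeR adjusted p = 0.0128). Mouse 1 went the other way, from 6.31 to 6.61 CPM, whereas in mouse 5 it went from 7.97 to 2.70 CPM. Flipping the signs of the 6 pair differences (exact test, two-sided) gave p = 0.0625, and male mice alone gave -0.70 (edgeR adjusted p = 0.0876).

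The NAIP receptors that act with NLRC4 did not pass the test. Naip2 (ENSMUSG00000078945, chromosome 13, 100144063 to 100202092) had a median of 70.8 CPM without and 81.4 CPM with rhodamine, with ranges of 56.9 to 86.6 and 59.7 to 94.6 CPM. It was higher in 4 mice and lower in mice 4 and 6, and its estimate of 0.14 ± 0.09 (SE, edgeR adjusted p = 0.291) was -0.022 with library size alone as the scaling. Naip5 (ENSMUSG00000071203, chromosome 13, 100211739 to 100246323) had medians of 57.4 and 52.6 CPM and an estimate of -0.08 ± 0.08 (SE, edgeR adjusted p = 0.501). Their log2 fold changes lay within -0.06 to 0.34 and -0.27 to 0.10 (95% intervals). Both genes are on the minus strand of one cluster with Naip1 and Naip6, and reads may be split between them. Of the 50-base windows of Naip2 transcripts, 19.1% occur in another gene, most often Naip1, and of those of Naip5 36.9%, most often Naip6. Summed over Naip1, Naip2, Naip5 and Naip6 the level was 154 ± 17.3 CPM without and 152 ± 19.9 CPM with rhodamine (SD, n = 6). The sum was higher in mice 1 to 3 and lower in mice 4 to 6, by at most 0.15 on the log2 scale.

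Aim2 (ENSMUSG00000037860, chromosome 1, 173350879 to 173466040, plus strand) had 47.7, 57.3 and 64.6 CPM (lowest, median and highest) in rhodamine-negative and 41.4, 47.5 and 55.6 CPM in rhodamine-positive sorts. It was lower in all 6 mice, by -0.47 in mouse 1 and by -0.01 in mouse 5 on the log2 scale. The log2 fold change of -0.27 ± 0.09 (SE, edgeR adjusted p = 0.0454) was the smallest of those that passed. It rests on every mouse but mouse 5, because it did not pass without mouse 1, 2, 3, 4 or 6 (edgeR adjusted p = 0.122, 0.0780, 0.125, 0.0946 and 0.0724). Nor did it pass without the pairing by mouse (adjusted p = 0.0709).

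Pycard (ENSMUSG00000030793, chromosome 7, 127989708 to 127993867, minus strand) was the most abundant member. It had 238, 371 and 458 CPM (lowest, median and highest) in rhodamine-negative and 430.4, 486 and 649 CPM in rhodamine-positive sorts. It was higher in all 6 mice, but by very different amounts, from 458 to 464 CPM in mouse 1 and from 238 to 497 CPM in mouse 5. The rhodamine-positive sorts of mice 1 to 5 lay within 430.4 to 497 CPM, although their rhodamine-negative sorts spread from 238 to 458 CPM. The rise was 1.401-fold, 0.49 ± 0.13 on the log2 scale (SE, edgeR adjusted p = 0.0165). It did not pass without mouse 2 or 6 (edgeR adjusted p = 0.0518 and 0.0556), nor with library size alone (0.33, adjusted p = 0.0663) or without the pairing by mouse (0.46, adjusted p = 0.0564). Exon sequence of Pycard overlaps Gm45205 on the opposite strand over 485 bases, and no source used here gives the strand setting of the counting. The counts of Gm45205 were 61.7% to 68.7% of those of Pycard in all 12 libraries, with Pearson r = 0.995 between their log2 CPM, and its log2 fold change was 0.48 ± 0.13. The overlap is 12.8% of the exon bases of Pycard, and 11.5% of its 50-base windows occur in Gm45205. Within the overlap, reads of the 2 genes cannot be told apart without strand, and the share of the Pycard counts that came from it was not measured.

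**Figure D3:**
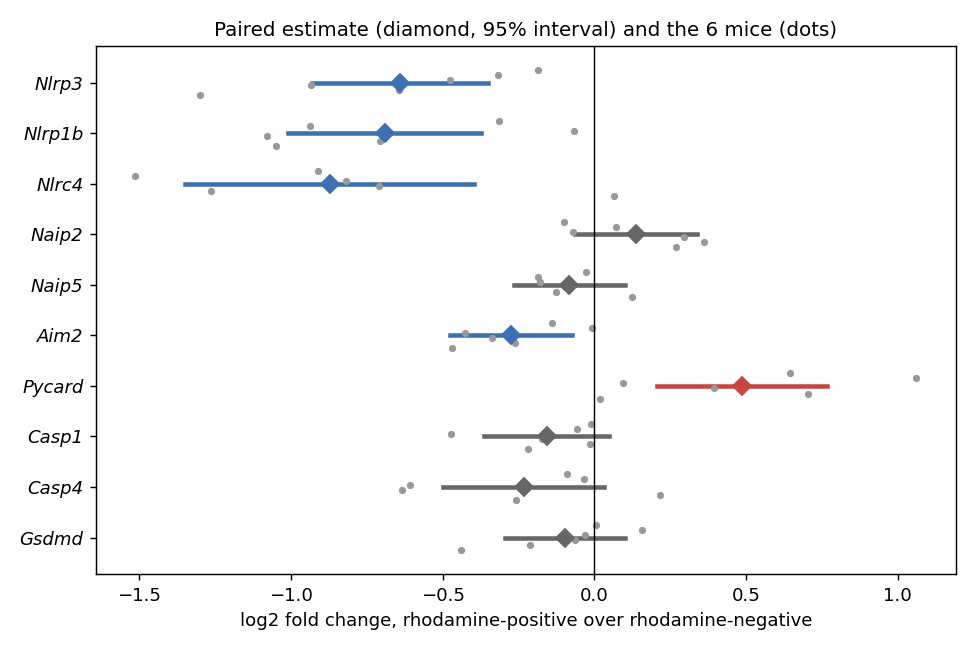
Log2 fold change of each gene from the paired fit (diamond) with its 95% interval (bar) and the difference in each of the 6 mice (dots), in blue for members that fell, red for the one that rose and grey for those that did not pass. The intervals of Nlrp3, Nlrp1b, Nlrc4 and Aim2 lie below 0 and that of Pycard above it.

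The caspases and gasdermin D differed less between the sorts than between mice. Casp1 (ENSMUSG00000025888, chromosome 9, 5298517 to 5307265, plus strand) ranged from 37.8 to 60.5 CPM without and from 33.5 to 60.2 CPM with rhodamine, with medians of 45.4 and 40.2 CPM. It was lower in all 6 mice, but by -0.01 on the log2 scale in mice 2 and 6, and its estimate of -0.16 ± 0.09 did not pass (SE, edgeR adjusted p = 0.242). The sign-flip test, exact and two-sided, gave p = 0.0312 for Casp1, which is the smallest it can give and is not adjusted for other genes. Casp4 (ENSMUSG00000033538, chromosome 9, 5308828 to 5336783, plus strand), the neighbour of Casp1, had medians of 45.3 and 42.0 CPM. It was lower in 5 mice, most in mouse 3 (34.2 to 21.97 CPM) and mouse 4 (63.95 to 41.9 CPM), and higher in mouse 2 (40.2 to 46.7 CPM). Its estimate was -0.23 ± 0.12 (SE, edgeR adjusted p = 0.182).

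Gsdmd (ENSMUSG00000022575, chromosome 15, 75862327 to 75867408, plus strand) had 121, 130.4 and 193 CPM (lowest, median and highest) without rhodamine and 112, 121 and 194 CPM in rhodamine-positive sorts. It was lower in mice 1 to 4 and higher in mice 5 and 6, with an estimate of -0.10 ± 0.09 (SE, edgeR adjusted p = 0.457). The 95% intervals of the log2 fold changes were -0.36 to 0.05 for Casp1, -0.50 to 0.03 for Casp4 and -0.29 to 0.10 for Gsdmd. With library size alone these 3 genes passed as lower, at -0.32, -0.39 and -0.26 (edgeR adjusted p = 0.0268, 0.0351 and 0.0459). Under that scaling the median log2 fold change over all genes was -0.18.

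The mice differed in how many members were lower. Mouse 4 had 9 of 10 members lower and mouse 1 had 6, and the median difference over the members ran from -0.30 in mouse 4 to -0.05 in mouse 5, against medians over all genes between -0.02 and 0.04. In rhodamine-positive sorts, mouse 6 held the highest level of 6 members (Nlrp1b, Aim2, Pycard, Casp1, Casp4 and Gsdmd), and in rhodamine-negative sorts of 4. The fall of Nlrp3 averaged -0.84 in the 4 male and -0.25 in the 2 female mice, and the rise of Pycard 0.30 and 0.85. These differences did not pass the test of the interaction (edgeR adjusted p = 0.618 and 0.620). The summed dendritic cell markers were lower in each mouse as well, with log2 differences from -0.67 in mouse 4 to -1.86 in mouse 5, and so were the summed monocyte markers, from -1.01 in mouse 4 to -2.42 in mouse 2. The part of these and the other marker lists in the lower sensor and higher adaptor levels was not tested.

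Genes with the most similar profile were sought for each member that passed, by Pearson r of log2 CPM over the 12 libraries among 8665 genes, as a description. Nlrp3 was most like Ubxn7 (r = 0.936), Mat2a (0.920) and Ubr1 (0.915), and Nlrp1b was most like Cep152 (0.928), Coro1a (0.906) and Lrch3 (0.906). Nlrc4 was closest to Rbm33 (0.932), Esrra (0.926) and Chd1 (0.908), and Aim2 to Lpar6 (0.946), Taf7 (0.944) and Atf4 (0.943). Pycard was closest to Snx22 (0.968), Ssr2 (0.963) and Emc7 (0.960). No member was among the 3 closest genes of another. For Nlrc4 this was fixed beforehand, since it lay below the mean log2 CPM of 3 required of a candidate. The 12 libraries come from 6 mice and share their preparation, so these values describe likeness in this set of libraries.

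Other sensors of the NOD-like and pyrin families were mostly lower. Of 10 tested genes 6 fell and 1 rose, with a median log2 fold change of -0.47. Mefv, which encodes pyrin, fell 2.87-fold, from 13.8 ± 6.74 to 4.87 ± 2.33 CPM (SD, n = 6). Nod2, a receptor of bacterial muramyl dipeptide, fell 3.54-fold, from 4.30 ± 1.52 to 1.22 ± 0.452 CPM. Nlrp1c-ps, a pseudogene beside Nlrp1b, fell by 0.82 on the log2 scale, and Nlrp10, with 22 counts at most, fell by 3.03. Naip6 and Nlrc5, a transactivator of MHC class I genes, fell by 0.40 and 0.48, and did not pass in 4 and 5 of the 6 fits that left out 1 mouse (highest edgeR adjusted p = 0.0879 and 0.0955). Nlrc3, described as a negative regulator of innate signalling, was the 1 that rose, 2.30-fold, from 8.30 ± 2.76 to 19.3 ± 6.93 CPM. Without mouse 3 the number that fell was 3.

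The AIM2-like receptors, a family of DNA-binding proteins next to Aim2 on the same chromosome, were tested with other cytosolic DNA sensing genes. Of 11 tested genes 6 fell and none rose, with a median of -0.52. Ifi205 fell 4.07-fold, from 71.9 ± 32.5 to 16.9 ± 4.98 CPM (SD, n = 6), Ifi203 fell 3.12-fold, Mndal 2.56-fold and Ifi213 1.80-fold. Ifi213 did not pass without the pairing by mouse (edgeR adjusted p = 0.120). Ifi204, the mouse gene related to human IFI16, was level at 127 ± 36.5 and 131 ± 52.2 CPM and did not pass. Members of this family are close copies of each other, so reads may be split between them.

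The genes grouped here as upstream of NLRP3 are not all activators. Of 15 tested genes 3 fell and none rose, with a median of -0.03. Among all genes tested, 13.2% were lower and 13% higher. Txnip, a thioredoxin-binding protein reported to bind NLRP3, fell by 0.55 on the log2 scale, from 229 ± 16.9 to 157 ± 26.97 CPM (SD, n = 6). Tmem176a and Tmem176b, ion channel genes of myeloid cells, each fell by 0.53, and neither passed without the pairing by mouse (edgeR adjusted p = 0.197 and 0.101). P2rx7, the ATP-gated channel that lets potassium out, was at 87.5 ± 12.8 and 92.9 ± 10.1 CPM, and Nek7, the kinase that NLRP3 binds, at 112 ± 9.67 and 131 ± 16.3 CPM. Neither passed (edgeR adjusted p = 0.512 and 0.0767), and Panx1 at -0.48 ± 0.17 (SE) did not either (adjusted p = 0.0559).

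The cytokines that caspase-1 matures differed from each other. Il1b fell by 1.91 on the log2 scale, or 3.77-fold, whereas Il18 was at 23.4 ± 7.48 and 26.9 ± 6.13 CPM (SD, n = 6) and did not pass (edgeR adjusted p = 0.238). Il1a, which needs no caspase-1 cleavage, differed by -0.45 ± 0.16 (SE, edgeR adjusted p = 0.0545) and passed without mouse 5 (adjusted p = 0.000614). Of 7 tested genes 3 fell and 1 rose. Il18rap, a chain of the interleukin-18 receptor, fell 3.97-fold, and Il1rap, a chain of the interleukin-1 receptor, by 0.74 on the log2 scale. Il1rap did not pass without mouse 2 or 6 (edgeR adjusted p = 0.0544 and 0.0530). Hmgb1, a nuclear protein released from dying cells, was the 1 that rose, by 0.28, and it did not pass without mouse 2, 3 or 6 (highest adjusted p = 0.0584) or with library size alone (0.12, adjusted p = 0.263).

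Inhibitors of the inflammasome and of interleukin-1 were largely lower too, with 9 of 15 tested genes down, 1 up and a median of -0.47. Il1r2, the decoy receptor of interleukin-1, fell 6.28-fold, from 243 ± 110.2 to 37.2 ± 9.38 CPM (SD, n = 6), and Il1rn, the receptor antagonist, by 0.68 on the log2 scale. Socs1, a feedback inhibitor of cytokine signalling, fell 2.96-fold, and Pstpip1, a partner of pyrin, 1.61-fold (without the pairing, edgeR adjusted p = 0.0593). The 1 that rose was Il18bp, which neutralises interleukin-18, by 0.63 ± 0.09 (SE). It was higher in all 6 mice and did not pass without the pairing by mouse (edgeR adjusted p = 0.271).

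Among other genes of lytic and apoptotic death, 2 of 14 rose and 1 fell, with a median of 0.04. Of all genes tested, 13% were higher and 13.2% lower. Ninj1, whose product ruptures the plasma membrane after gasdermin pores form, rose 1.596-fold, from 242 ± 64.6 to 381 ± 77.8 CPM (SD, n = 6), in all 6 mice. Casp6 fell by 0.47 and did not pass without mouse 1, 5 or 6 (highest adjusted p = 0.0667). Chmp4b, of the membrane repair machinery, had -0.45 ± 0.17 (SE) and did not pass (adjusted p = 0.0710), but passed without mouse 6 (adjusted p = 0.0428). Casp8 was at 148 CPM in both sorts, and Gsdme, a gasdermin cleaved by caspase-3, at 8.72 ± 1.84 and 9.35 ± 0.576 CPM.

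Guanylate-binding proteins and immunity-related GTPases expose bacterial lipopolysaccharide to caspase-4, and IRF1 and IRF2 are interferon regulatory factors. Of these 17 tested genes 5 fell and none rose, with a median of -0.06. Irf1 fell by 0.90 and Irf2, a factor known to drive Gsdmd transcription, by 0.51 on the log2 scale, both in all 6 mice. Gbp8 fell by 0.98. Without the pairing by mouse, Irf1 and Gbp8 did not pass (edgeR adjusted p = 0.0972 and 0.241), and Irf2 was the 1 gene of this list that fell. Gbp4 and Gbp5 fell by 0.59 and 0.51, and each lost its call in 5 of 6 fits that left out 1 mouse (highest edgeR adjusted p = 0.0911 and 0.134). Without mouse 1, 2, 3, 5 or 6 the number that fell was 3.

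Genes of the priming signal, which runs from TLR4 to NF-kB and raises NLRP3 and pro-interleukin-1 beta, included 5 that fell and 1 that rose among 20 tested, with a median of -0.18. Those that fell were Ikbkb (-0.85), a kinase that releases NF-kB, Nfkbia (-0.72), Nfkb1 (-0.67), the adaptor gene Myd88 (-0.43) and the kinase gene Irak2 (-0.27). Irak2 lost its call in 5 of 6 fits that left out 1 mouse (highest edgeR adjusted p = 0.135). Tlr4 was at 36.0 ± 4.84 and 41.9 ± 7.46 CPM (SD, n = 6) and did not pass (adjusted p = 0.157). Lbp, the lipopolysaccharide-binding protein, was the 1 that rose, 2.27-fold, from 3.57 ± 1.85 to 8.19 ± 4.18 CPM. Counts of these lists stand beside 13.2% lower and 13% higher among all genes tested, and nothing particular to a list was tested.

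**Figure D4:**
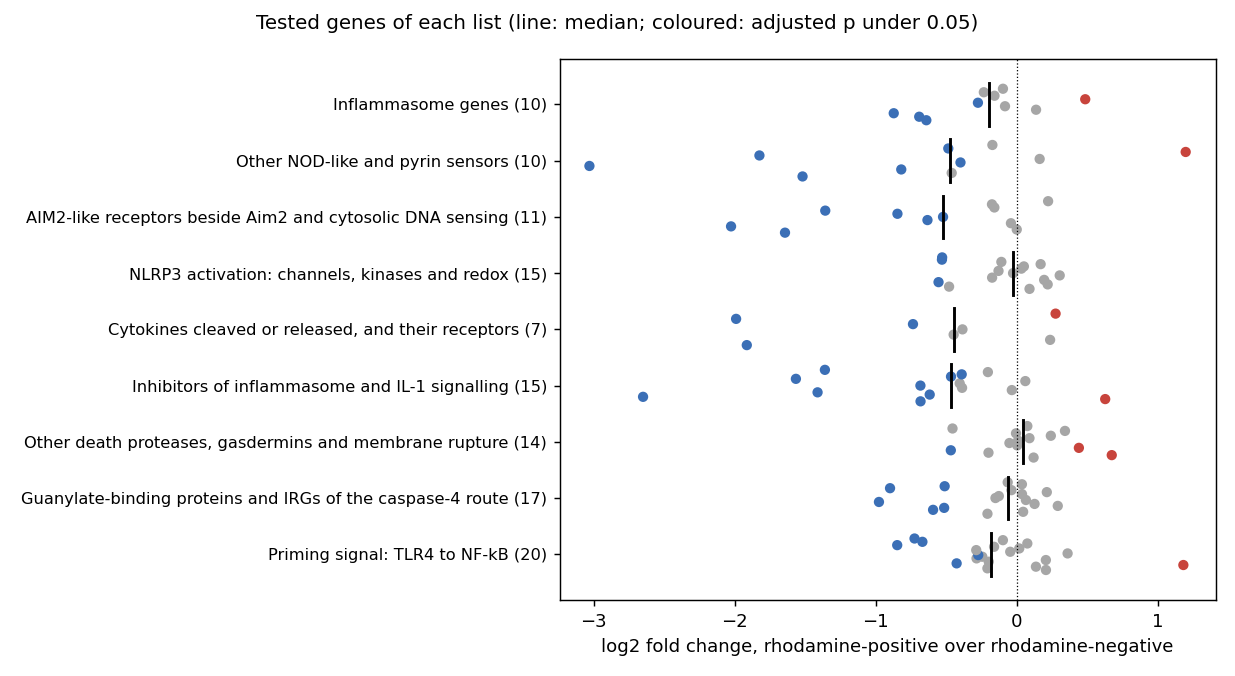
Log2 fold change of every tested gene of the inflammasome members and of 8 related gene lists, with the number tested in brackets, the median as a black line, and genes that fell in blue, rose in red and did not pass in grey. The medians of the other sensors (-0.47), the AIM2-like receptors (-0.52) and the inhibitors (-0.47) lie left of 0. Those of the genes grouped as upstream of NLRP3 (labelled NLRP3 activation, -0.03) and the death genes (0.04) lie near it.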

How the data were processed

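Polyadenylated RNA of 12 libraries, 6 per sort, was sequenced. Build mm10, HISAT2 2.1.0 and featureCounts 1.4.4 are named in the submitters' processing notes, beside cutadapt, limma, edgeR and bcl2fastq 2.17. Their parameters and the strand setting are not given in the sources used here. The authors deposited raw read counts per gene, used as they stand, and a table of log2 normalized values for 10605 genes, used as an alternative. All 12 per-library files equalled the count table.

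Genes were filtered with filterByExpr (minimum count 10, minimum total 15), which kept 99.8% of counts. The test was edgeR 4.0.16 quasi-likelihood in R 4.3.3, with TMM scaling, a block for mouse, a threshold of 0.05 and Benjamini-Hochberg adjustment across 15014 genes. SE was obtained by dividing the size of the log2 fold change by the root of F. Log2 CPM used a prior count of 2. The mouse is a block because the series description calls the sorts paired. Deviations of same-mouse libraries correlated at 0.0775 (mouse 4) to 0.450, and the highest correlation with another mouse was 0.148 to 0.187. The same-mouse value was the higher in mice 1, 2, 3, 5 and 6 and the lower in mouse 4 (0.0775 against 0.187). The calls of Nlrp3, Aim2 and Pycard need the block. With the block, p-values weigh the difference between sorts against how much that difference varies among these 6 mice, moderated across genes. Coordinates and exon lengths are from GENCODE vM21 (GRCm38), which held 54495 of 54532 gene IDs. On simulated counts of this comparison (14610 genes), 32% of 100 changes of 0.5 and 85% of 100 changes of 1 on the log2 scale were recovered, with 9 false calls of 126. No other changes were put in, whereas 26.2% of all genes tested were called in the data. Recovery at such a share of changes was not tested. Within each sort no library copied another (lowest chi-square per degree of freedom 17.5). Libraries of different sorts were not compared in this way.

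The members and gene lists were chosen with earlier results of these data known. Named genes were all members, the 4 of each list with the smallest p and those of counts of 5 or fewer, and the 3 most similar genes (mean log2 CPM 3 or more). Predicted and Rik genes were skipped there. Il18, Il1a, Il1rn, P2rx7, Nek7, Ifi204, Nlrp10, Naip6, Nlrc5, Casp8, Gsdme, Tlr4, Gm45205 and the undetected genes of the closing section were named after their values were seen. A list gene that the rule names is not reported here. DESeq2 1.42.0, limma 3.58.1 (voom and the deposited log2 values), other scalings and filters, the 4 males alone and leaving out each mouse were alternatives. So were a fit without the block for mouse and the exact sign-flip test, whose p is unadjusted.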

Additional observations from a re-analysis of the deposited data

Results flagged for a closer look

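In the rhodamine-positive sorts, mouse 6 lay far from the other 5 mice for Pycard, at 649 CPM against 497 CPM in the next mouse, and for Casp1, at 60.2 CPM against 42.2 CPM. Both gaps exceeded Dixon's 95% critical value of 0.625 of the range for 6 samples. Chance marks about 1 in 20 groups, and 20 groups (10 genes in 2 sorts) were examined. The rhodamine-negative sort of mouse 6 was the highest for Casp1 as well, at 60.5 CPM, and not for Pycard, at 415 CPM.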

How the results depend on the processing

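Of 170 refits of single members (17 alternatives for each of 10 genes), 150 kept the direction and the side of the threshold, 15 lost a call, 4 gained one and 1 changed sign, which was Naip2 at -0.022 with library size alone. Without the mouse as a block, 2 members fell (Nlrp1b and Nlrc4) and none rose, and 1270 of all genes were higher. With library size alone, 7 members fell and none rose, and 852 of all genes were higher and 3142 lower, so that 78.7% of calls were lower against 50.4%. Male mice alone gave no member higher, and 1005 genes higher and 1222 lower. With 1 mouse left out, 3 to 4 members fell, 0 to 1 rose, and 1257 to 1780 genes were higher and 1421 to 1820 lower. The count of 0 members higher came without mouse 2 or 6, and the lowest count of higher genes was without mouse 3. Aim2 was also lost without a filter (-0.26, edgeR adjusted p = 0.149) and Pycard in male mice alone (0.29, adjusted p = 0.131). Lengths of principal transcripts, chosen after seeing the data, moved the rhodamine-negative level of Casp4 from 12.6 to 32.5, of Gsdmd from 60.01 to 79.6, of Aim2 from 16.4 to 20.2 and of Nlrp1b from 5.27 to 7.69 CPM per kb. Summed Naip counts differed by -0.02 against 0.14 for Naip2, less than the spread between mice. The cause of these shifts was not tested, other than that leaving out mice reduces the samples. The depth left Nlrc4 with 34 to 165 counts a library, the least precise member.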

Other observations

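Several inflammasome sensors and pores known from other tissues were almost or fully undetected in these sorts. Nlrp6, a sensor of gut epithelium, had 30 counts over all 12 libraries, Nlrp12 had 8, Nlrp2 had 2 and Naip1 had 69. The gasdermin genes Gsdma and Gsdmc had 0 counts in every library. None of these genes passed the filter on low counts, and none was tested.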
